A study of Mus musculus with 401 samples.

Results

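Cumulus cells of old mice were compared with cumulus cells of calorie-restricted (CR) mice. The comparison took all 41 cumulus libraries that the labels place in these groups, 16 old and 25 CR, out of 401 libraries in the series. The study isolated oocyte-cumulus complexes of fully grown follicles and sequenced each oocyte and the pooled cumulus cells around it separately by RamDA-seq, a full-length total RNA method. All mice were of the B6D2F1 (C57BL/6 x DBA/2) strain and were hyperovulated. The hormone was eCG or HyperOva, and which animals received which was not given in the sources used here. The old mice were 14 months old and fed ad libitum, and their libraries carry 2 mouse labels, Old1_2 (11 libraries, by its name a pair of mice) and Old3 (5 libraries). The CR mice were 9 months old and on a restricted ration begun in adult life, and their libraries carry the labels CR1 (3 libraries), CR2 (9) and CR3 (13). Age and diet therefore moved together and cannot be told apart in this comparison. Libraries of the same label share animals, so p-values over libraries measure mainly the spread between complexes and not between mice.

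Cumulus cells are the granulosa cells that surround the oocyte inside an antral follicle. They feed it metabolites through gap junctions, hold it in meiotic arrest with cyclic GMP, and respond both to follicle-stimulating hormone and to growth factors that the oocyte secretes. Calorie restriction is known in many tissues to act on nutrient sensing, protein folding and stress pathways.

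Total counts ranged from 1051482 to 1540270 (median 1288956) per old library and from 1568223 to 2501005 (median 2019007) per CR library, so depth did not overlap between the groups and cannot be told apart from them. Each count was therefore also taken after all libraries had been drawn down to the same depth. RamDA-seq reads carry no molecular identifiers, and the errors cover counting and the spread between libraries only. The tissue label held: the 15 cumulus markers summed to a median of 22500 CPM (counts scaled to a library total of 1000000) in old and 20510 CPM in CR libraries, and Amh, Fshr, Inha, Foxl2, Cyp19a1, Kitl and Gja1 were all detected. The markers of other cells were measured in the same way. The oocyte markers had a median sum of 29.9 CPM in old (3.71 to 73.4) and 12.2 CPM in CR libraries (4.36 to 464), against 23460 CPM in oocytes, and none of the 12 tested was a differentially expressed gene (DEG). CR library 25 held the 464 CPM, and the next highest of all libraries had 79.8 CPM. The median log2 fold change of these markers (CR minus old) was 1.038 with this library and −0.75 without it, when 1 of 11 tested, Kit, was lower in CR. Summed markers of theca and stroma had medians of 121 CPM (88.9 to 323) in old and 125 CPM (68.8 to 256) in CR libraries. Those of endothelium had medians of 8.96 CPM (1.57 to 26.6) and 6.10 CPM (0 to 12.5). Those of immune cells had medians of 9.03 CPM (3.28 to 18.1) and 10.5 CPM (4.74 to 125), so the highest CR value lay far above the old range. Of 7 immune markers tested 6 were above 0 (median 0.48), and none was a DEG. Listed markers at 3 counts or fewer in each of the 41 libraries were 1 of 15 for the oocyte, 3 of 13 for theca and stroma (Lum, Tcf21 and Insl3), 4 of 10 for endothelium and 2 of 10 for immune cells. Red blood cell markers moved with the groups, with median sums of 70.3 CPM in old (8.56 to 110) and 30.2 CPM in CR libraries (5.86 to 81.3), and the single one tested, Alas2, was lower in CR (−0.90, FDR 0.0449). The part of these markers in the results was not tested. A few libraries stood apart. Amh, the anti-Müllerian hormone of growing follicles, exceeded 700 CPM in 3 old libraries (numbers 1, 3 and 6, all of Old1_2) and 3 CR libraries (5, 18 and 19), with 196 CPM as the highest value in the other old libraries and 561 CPM in the other CR libraries, which left no clear gap in CR. Old library 7 had the highest sum of luteal markers, 1167 CPM, and old library 10 held a single Xist count.

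Of 24946 genes tested, 844 were higher in CR than in old cumulus cells (3.38% of the genes) and 512 were lower (2.05%) at a false discovery rate (FDR) of 5% by edgeR's quasi-likelihood test. Most differences were moderate, with 197 of the 844 and 227 of the 512 at least 2-fold. Genes higher in CR had a median level of 32.85 CPM and those lower in CR of 23.66 CPM, against 4.43 CPM for all genes, and 83.29% and 73.83% coded for proteins, against 59.33%. Of the 9871 genes with a mean of at least 10 CPM, 617 were higher and 306 lower, so expressed genes were called more often. The shares over all genes that stand beside the gene lists below include genes at lower levels. For 772 of the 844 the means of all 3 CR labels lay above both old labels, as they did for 16.8% of all genes tested, and for 459 of the 512 they lay below, as for 12.1% of all genes. Of the DEGs 62.24% were higher in CR, and this split moved with the scaling: it was 50.19% with median-of-ratios size factors, 53.66% with DESeq2 and 46.82% (508 higher and 577 lower) at equal depth. Of the genes called at equal depth, 476 of the higher and 418 of the lower were among the 844 and the 512.

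The calls rested largely on many libraries from few mice. Without the 11 libraries of Old1_2, 79 genes were higher and 64 lower. Without Old3, 421 were higher and 251 lower. When counts were summed per mouse label, leaving 2 labels against 3, 1 gene was higher (Adam23) and 1 lower (Rnase1), both named after their values were seen, although 2334 genes had an unadjusted p under 0.05 in that fit. Differences below are given with the fitted log2 fold change (CR minus old) ± SE and the FDR of edgeR's quasi-likelihood test. Of 128 named DEGs, 12 lost the call under no alternative that gave them an FDR, these sums aside. Among the 12, Ppargc1a had values under 16 of the 20 alternatives and Gm22205 under 18.

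**Figure D1:**
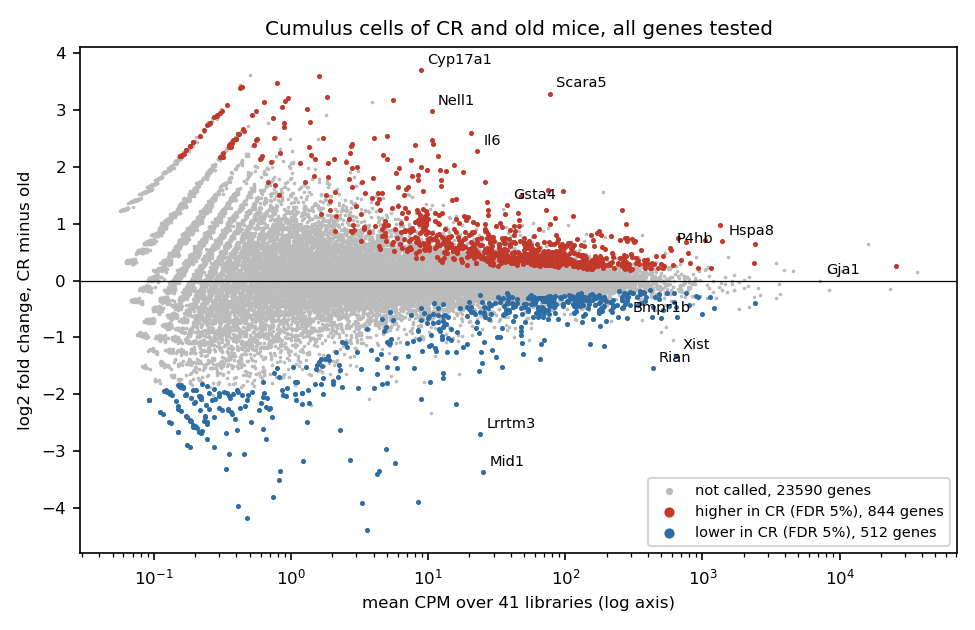
Log2 fold change (CR minus old) of the 24946 genes tested against mean level (CPM, log axis), with genes that were not DEGs in grey and DEGs in colour. The 844 genes above 0 and 512 below 0 that passed the test were spread over the whole range of levels, with Scara5 (3.29) and Mid1 (−3.37) far from 0 and Hspa8 and P4hb at high levels with changes below 1.

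Of the 10 leading increases, 3 nearly separated the groups. Scara5, a scavenger receptor that takes up ferritin, had 1.53 CPM in the lowest, 8.09 in the median and 40.6 in the highest old library, and 30.9, 112 and 257 CPM in CR libraries. Of the 25 CR libraries 21 lay above the highest old library. The increase was 3.29 ± 0.35 (FDR 1.39e-08), and the label means were 13 and 11.2 CPM in old and 122, 184 and 74.0 CPM in CR mice. Fetub, the secreted protease inhibitor fetuin-B, had 2.10, 4.31 and 11.5 CPM in old and 5.31, 21.9 and 55.3 CPM in CR libraries, with 19 CR libraries above the highest old one (2.04 ± 0.26, FDR 8.9e-07). Hdac7, a class II histone deacetylase, had 0.743, 5.46 and 9.23 CPM in old and 4.85, 19.7 and 45.9 CPM in CR libraries, with 21 above the highest old one (1.93 ± 0.26, FDR 2.08e-06). Fetub and Hdac7 were at low levels in both groups.

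The other leading increases overlapped more. Nell1, a secreted protein of bone and cartilage formation, was at 0 in 11 of 16 old libraries (highest 13.5 CPM) and above 0 in each CR library (0.524, 10.6 and 72.6 CPM; 2.98 ± 0.64, FDR 0.00278). Il6, the cytokine interleukin 6, had 0, 5.53 and 20.2 CPM in old and 3.38, 16 and 156 CPM in CR libraries, 10 of which lay above the highest old library (2.27 ± 0.47, FDR 0.00191). Gnao1, a G protein alpha subunit, rose by 2.47 ± 0.52 (FDR 0.00223), Col12a1, a collagen that binds to fibrils, by 2.41 ± 0.51 (FDR 0.0024) and Eya4, a transcriptional coactivator and phosphatase, by 1.95 ± 0.49 (FDR 0.0111). Gnao1, Col12a1 and Eya4 stayed at or below 62.7 CPM in each of the 41 libraries. Ptprv and Dynap rested on a minority of CR libraries. Ptprv, a receptor-type tyrosine phosphatase, had medians of 4.00 and 5.96 CPM with 238 CPM in the highest CR library, where 9 CR libraries were at 0 (2.59 ± 0.77, FDR 0.0373), and it was no longer a DEG under 10 alternatives besides the sums per mouse label, among them the removal of old library 7 or 10. Dynap had medians of 1.09 and 5.54 CPM with 6 CR libraries above the highest old one (2.18 ± 0.67, FDR 0.0449).

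Cyp17a1, the theca cell enzyme that makes androgen precursors, was below the level set for the leading genes but was the only one of the 10 theca and stroma markers tested that was a DEG. It was at 0 in 9 of 16 old libraries (highest 7.5 CPM) and above 0 in every CR library (0.967, 11.3 and 49.7 CPM), and 16 CR libraries lay above the highest old one (3.70 ± 0.52, FDR 4.95e-06). The summed markers of theca and stroma, given above, overlapped between the groups, and the part of theca RNA in the difference was not tested. Without Old1_2 it was 2.90 (FDR 0.118).

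The 10 leading decreases were Lrrtm3, Kcnj5, Lhcgr, Aire, Ptprt, Rian, Adamtsl2, Xist, Rph3al and Mirg. Lrrtm3, a leucine-rich synaptic membrane protein, had 1.93, 51.9 and 129 CPM in old and 0, 2.75 and 48.4 CPM in CR libraries. All 25 CR libraries lay below the old median, 11 of them below the lowest old library, and the gene fell by 2.69 ± 0.46 (FDR 0.000143). Within CR mice its label means were 1.43, 0.504 and 14.1 CPM, so CR3 stood nearer to old mice. Rph3al, which acts in regulated exocytosis, had 33.8, 74.6 and 130 CPM in old and 8.23, 30.4 and 66.5 CPM in CR libraries, 14 of them below the lowest old one (−1.29 ± 0.22, FDR 0.000111). Ptprt, another receptor tyrosine phosphatase, had 21.9, 41 and 56.8 CPM in old libraries and was below this range in 22 CR libraries (median 6.88 CPM), while 1 reached 104 CPM (−1.58 ± 0.39, FDR 0.0098). The CR values of these 3 genes were low in most libraries and not in all.

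Kcnj5, an inward rectifier potassium channel, had medians of 22 CPM in old and 3.45 CPM in CR libraries, with each CR library under the old median (−1.78 ± 0.44, FDR 0.00915). Aire, the autoimmune regulator, had medians of 21.8 and 6.77 CPM (−1.62 ± 0.45, FDR 0.0238), and Adamtsl2, a secreted protein of the matrix, medians of 41.3 and 15.8 CPM (−1.35 ± 0.35, FDR 0.0152). For both, 24 of 25 CR libraries lay below the old median. Lhcgr, the receptor for luteinizing hormone, fell by 1.72 ± 0.52 in the fit (FDR 0.0373), but the medians ran the other way, 4.72 CPM in old (0 to 138) and 5.34 CPM in CR libraries (0 to 32.5). This call rested on a few high old libraries, and without old library 7 the value was −1.15 (FDR 0.193).

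**Figure D2:**
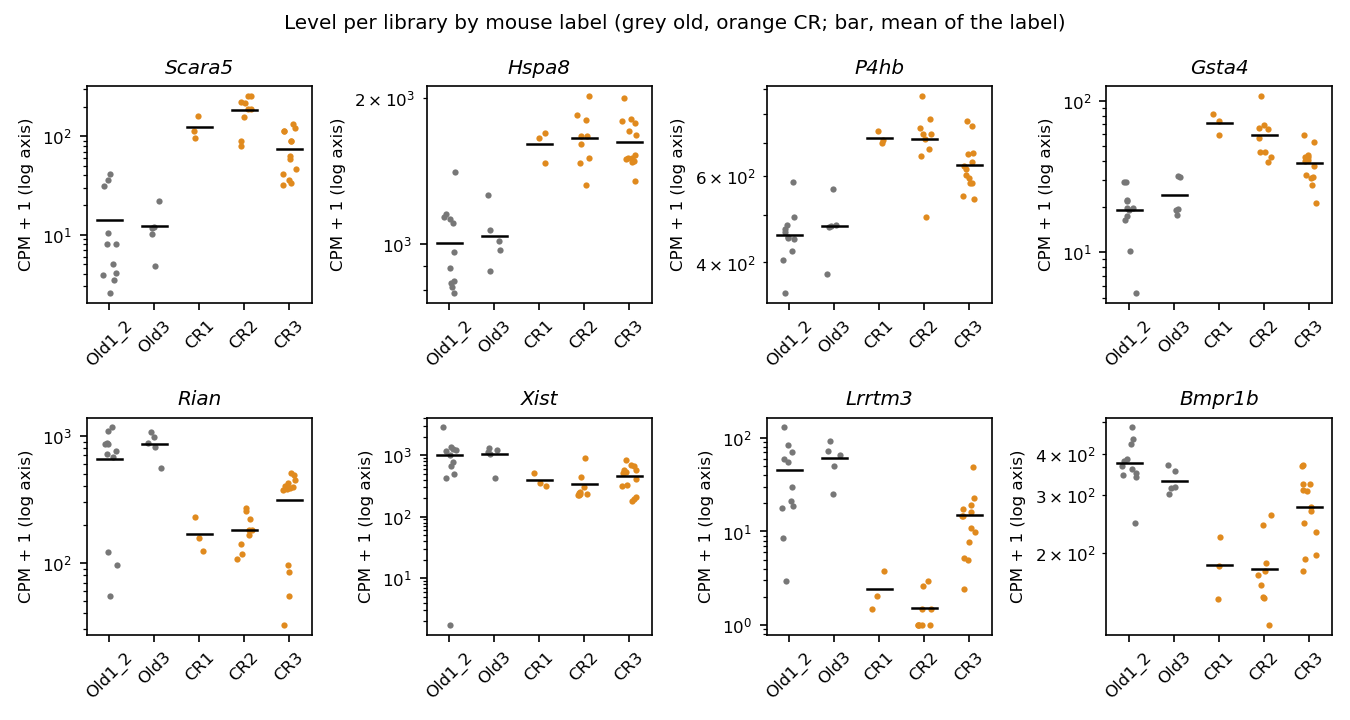
Level (CPM + 1, log axis) of 8 genes in each of the 41 libraries by mouse label, old in grey and CR in orange, with a bar at the mean of each label. Of the 25 CR libraries, 21 lay above the highest old library for Scara5, 23 for Hspa8 and 20 for P4hb, and 25 lay below the old median for Lrrtm3, Rian and Xist. Label means of CR mice on 1 side of both old labels were required for Scara5, Lrrtm3, Rian and Xist to be chosen.

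The imprinted Dlk1-Dio3 region of chromosome 12 held both Rian and Mirg of the 10 leading decreases. From the maternal chromosome this region gives rise to long noncoding RNAs that host many small RNAs, and from the paternal chromosome to the protein-coding genes Dlk1, Rtl1 and Dio3. In chr12:109452823-110281097 (GRCm38), 78 genes were tested, none was higher in CR, 15 were lower and 70 had a log2 fold change below 0. The median was −1.02 against 0.06 for all genes tested. Among all 24946 genes 2.05% were lower and 10771 were below 0. Rian (chr12:109603940-109661716), the host of snoRNAs, had 54.1, 832 and 1162 CPM in old and 31.4, 221 and 509 CPM in CR libraries. Each CR library lay below the old median, and Rian fell by 1.54 ± 0.30 (FDR 0.000799), with label means of 661 and 858 CPM in old and 169, 181 and 314 CPM in CR mice.

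Other transcripts of the region fell as well. Meg3, the first long noncoding RNA of the cluster, had 17.4, 235 and 419 CPM in old and 19.3, 103 and 251 CPM in CR libraries (−1.11 ± 0.28, FDR 0.0127). Mirg, the host of microRNAs, had 1.93, 40.3 and 68.7 CPM and 1.35, 15.7 and 30.3 CPM (−1.25 ± 0.27, FDR 0.00322). Rtl1, a gene of retrotransposon origin, had 0.743, 46.0 and 95.2 CPM and 0, 18.8 and 62.0 CPM (−1.22 ± 0.33, FDR 0.0184), and Dlk1, a Notch-like membrane protein, was near 0 in both groups with 5.79 CPM as its highest value (−2.27 ± 0.61, FDR 0.0192). The libraries are not strand-specific, so Rtl1 and the antisense transcript over it cannot be told apart, nor can small RNA precursors and their hosts. The 15 DEGs are therefore not 15 separate transcripts, nor are the 70 genes below 0 all separate. Meg3 and Rtl1 were no longer DEGs without Old3, without CR2 or with the mouse label as a random effect. Dlk1 was no longer one without Old1_2, CR2 or old library 10. Rian kept its call in each of these fits. The lowest old values of Rian, 54.1, 121 and 95.0 CPM, belonged to old libraries 1, 3 and 6, those with Amh above 700 CPM, and the other 13 old libraries ranged from 556 to 1162 CPM. With Amh as a covariate the change of Rian was −1.47 (FDR 3.66e-07), and without the 6 libraries of both groups with high Amh it was −1.69 (FDR 7.35e-07).

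**Figure D3:**
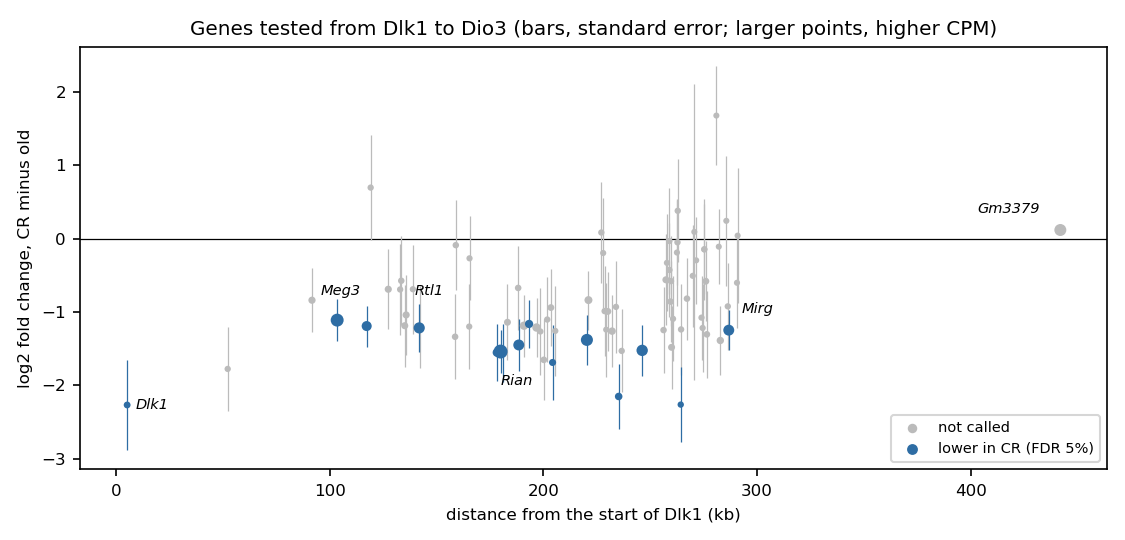
Log2 fold change (CR minus old) ± SE of the 78 genes tested between Dlk1 and Dio3 on chromosome 12 against the distance from the start of Dlk1 in kb, with larger points for higher mean CPM and DEGs coloured. Of the 78 genes 70 lay below 0, against 10771 of all 24946 genes tested, and the 15 DEGs were all lower in CR.

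Xist, the noncoding RNA that coats the inactive X chromosome, was also lower. Old libraries had 0.724, 1094 and 2817 CPM and CR libraries 179, 320 and 888 CPM, each CR library lying below the old median (−1.32 ± 0.29, FDR 0.00305). The lowest old value was a single count in library 10, where Tsix had no count and genes of the X chromosome took 2.67% of all counts, against 2.69% or more in the other old libraries, which had at least 417 CPM of Xist. Without that library the change was −1.43 (FDR 2.02e-05). Tsix, which overlaps Xist on the other strand, fell by 1.0 ± 0.25 (FDR 0.0111), and reads of the pair cannot be told apart. The X share of counts had medians of 2.92% in old and 2.82% in CR libraries. Of 19 noncoding RNAs listed and tested, 5 were lower (Xist, Tsix, Meg3, Mirg and Rian) and 3 higher (Rmrp 0.54, Snhg1 0.33 and Snhg11 0.72). Over all genes 2.05% were lower and 3.38% higher.

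Chaperones of the endoplasmic reticulum (ER) and of the cytosol were among the genes that rose. In the ER, chaperones and disulfide isomerases fold secreted and membrane proteins, and an overload switches on their genes through the unfolded protein response. Of 44 genes of the ER and integrated stress response 12 were higher in CR and none lower, with a median of 0.25 against 0.06 for all genes. Over all genes tested 3.38% were higher and 2.05% lower. The chaperones made up 9 of the 12, out of 19 tested. The clearest was P4hb, protein disulfide isomerase, with 345, 463 and 582 CPM in old and 495, 668 and 872 CPM in CR libraries. Of the CR libraries 20 lay above the highest old one, and the increase was 0.54 ± 0.07 (FDR 1.73e-07). Calr, the calcium-binding chaperone calreticulin, had 486, 576 and 893 CPM and 524, 890 and 1197 CPM (0.48 ± 0.10, FDR 0.00197). The others were Dnajb11, Edem1, Pdia3, Sdf2l1 Canx, Hspa5 and Pdia6, with increases of 0.22 (Hspa5) to 0.70 (Sdf2l1).

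Among sensors and effectors, 3 of 25 rose. Slc3a2, the heavy chain of amino acid transporters, had 104, 146 and 186 CPM in old and 143, 213 and 297 CPM in CR libraries (0.59 ± 0.08, FDR 2.94e-06). Sesn2, a leucine sensor induced by stress, had medians of 10.3 and 17.4 CPM (0.86 ± 0.17, FDR 0.0011), and Mthfd2, a mitochondrial folate enzyme, rose by 0.56 (FDR 0.00702). The count of 12 was 9 at equal depth, 10 without Old3 and 1 without Old1_2.

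The ER stress response element, CCAAT followed by 9 bases of any kind and CCACG, is the known binding site of ATF6 with NF-Y in promoters of ER chaperones. It was searched on both strands in the 250 bases before each RefSeq gene start (GRCm38.p6). It was found in 37 of 32851 promoters (0.113%) and in 8 of the 39 ER and integrated stress response genes that had a promoter in the table, 4 of 12 that rose and 4 of 27 that did not pass the test (Creld2, Dnajc3, Hsp90b1 and Syvn1). The promoters of the 4 genes that rose are shown because they share this element, which is in capitals. Each reads 5′ to 3′ on the strand of its gene. They are those of Hspa5 (the ER chaperone BiP; chr2:34771840-34772089, plus strand), Calr (chr8:84846932-84847181, minus strand), Canx (the lectin chaperone calnexin; chr11:50325674-50325923, minus strand) and Pdia6 (a disulfide isomerase; chr12:17266339-17266588, plus strand).
Hspa5: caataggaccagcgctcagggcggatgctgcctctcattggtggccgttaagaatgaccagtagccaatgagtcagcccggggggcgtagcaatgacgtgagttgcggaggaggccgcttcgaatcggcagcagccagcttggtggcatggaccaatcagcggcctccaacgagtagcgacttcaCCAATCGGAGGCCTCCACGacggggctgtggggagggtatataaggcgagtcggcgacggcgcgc
Calr: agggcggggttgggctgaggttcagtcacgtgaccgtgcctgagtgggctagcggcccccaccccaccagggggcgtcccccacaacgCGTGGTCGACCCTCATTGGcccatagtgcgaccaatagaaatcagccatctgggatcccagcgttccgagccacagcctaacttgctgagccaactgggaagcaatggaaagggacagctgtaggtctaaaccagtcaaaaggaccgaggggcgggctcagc
Canx: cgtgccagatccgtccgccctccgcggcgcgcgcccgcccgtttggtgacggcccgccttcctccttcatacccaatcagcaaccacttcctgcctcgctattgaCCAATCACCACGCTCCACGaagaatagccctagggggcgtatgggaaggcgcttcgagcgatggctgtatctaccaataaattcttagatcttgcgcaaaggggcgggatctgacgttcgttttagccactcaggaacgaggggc
Pdia6: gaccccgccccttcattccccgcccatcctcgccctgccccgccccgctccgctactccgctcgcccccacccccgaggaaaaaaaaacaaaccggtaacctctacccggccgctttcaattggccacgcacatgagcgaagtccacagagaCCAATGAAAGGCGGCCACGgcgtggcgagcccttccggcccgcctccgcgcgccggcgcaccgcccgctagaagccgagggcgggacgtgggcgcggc
The element lay 65 to 47 bases before the start in Hspa5, 98 to 80 in Pdia6 and 145 to 127 in Canx, and 162 to 144 in Calr, where it is on the other strand. Beside these sequences the levels rose by 0.22 for Hspa5 (FDR 0.0494), 0.48 for Calr, 0.31 for Canx (FDR 0.0399) and 0.40 for Pdia6 (FDR 0.0163), and no factor's binding was measured.

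In the cytosol, 4 of 15 heat shock genes rose and none fell, with a list median of 0.19. Beside them, 3.38% of all genes were higher and 2.05% lower. Hspa8, the constitutive HSC70, had 787, 990 and 1407 CPM in old and 1319, 1653 and 2019 CPM in CR libraries, with 23 of 25 CR libraries above the highest old one. Its increase of 0.69 ± 0.07 had the lowest FDR among named genes (2.51e-09), and its label means were 1002 and 1036 CPM in old and 1603, 1655 and 1622 CPM in CR mice. Hsph1, an HSP110 partner of HSC70, had 141, 180 and 281 CPM and 197, 316 and 451 CPM (0.75 ± 0.10, FDR 6.71e-07). The stress-inducible HSP70 genes were low. Hspa1b had 1.42, 4.67 and 12.6 CPM and 6.29, 14.6 and 59.2 CPM (1.76 ± 0.26, FDR 1.83e-05), and its near-identical neighbour Hspa1a rose by 1.78 ± 0.30 (FDR 0.000147), with reads shared between both, so the pair counts as 1 signal. The count of 4 was also 4 at equal depth, and 3 without Old1_2.

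Genes of DNA replication and of histones were among those that rose. Of 56 replication genes, 11 were higher and 1 lower (Tipin, −0.40), with a median of 0.13. Over all genes 3.38% were higher and 2.05% lower. Cdt1, which loads the replicative helicase, had 19.5, 29.4 and 45.4 CPM in old and 30.8, 44.9 and 71.8 CPM in CR libraries (0.65 ± 0.10, FDR 4.92e-05). Tk1, the thymidine kinase of S phase, had 17.4, 24.1 and 32.4 CPM and 20.2, 39.7 and 69.7 CPM (0.74 ± 0.13, FDR 0.000353). Mcm4, a helicase subunit, had 109, 147 and 194 CPM and 132, 204 and 272 CPM (0.43 ± 0.08, FDR 0.000382), and Fen1, the flap endonuclease, medians of 30.4 and 41.6 CPM (0.38 ± 0.09, FDR 0.0096). The ranges of all 4 overlapped between groups. Mcm2 had medians of 221 and 266 CPM (0.19 ± 0.08, FDR 0.166).

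Of 67 replication-dependent histone genes, whose transcripts lack a poly(A) tail and are read by RamDA-seq, 15 were higher and none lower. A log2 fold change above 0 was found for 64, and the median was 0.40. Of all 24946 genes tested, 14175 were above 0, 3.38% were higher and 2.05% lower. Hist1h1c, a linker histone, had 18.9, 24.3 and 38.1 CPM in old and 13.3, 42.5 and 72.2 CPM in CR libraries (0.68 ± 0.15, FDR 0.00334), and Hist1h1a medians of 11.2 and 15.7 CPM (0.63 ± 0.14, FDR 0.00305). Hist2h3c2 (0.97 ± 0.22, FDR 0.0051) and Hist1h3g (1.5 ± 0.34, FDR 0.0048) had medians under 6 CPM, and core histone copies share reads. At equal depth 4 histone and 5 replication genes passed the test as higher, and without Old1_2 the counts were 0 and 1.

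Of 64 mitosis genes 1 was higher (Anln, 0.28) and 2 lower (Cks2 −0.45 and Ube2c −0.29), with a median of −0.02. These counts were near the shares over all genes, 3.38% higher and 2.05% lower. Mki67, the Ki-67 antigen of cycling cells, had 506, 734 and 869 CPM and 378, 646 and 963 CPM (−0.15 ± 0.08, FDR 0.313). Among 39 cyclins of G1 and cell cycle inhibitors, 6 were higher and 2 lower with a median of 0.21. Cdkn1a, the p53 target p21, had 1.40, 5.80 and 18.3 CPM in old and 1.09, 14.1 and 25.9 CPM in CR libraries (1.16 ± 0.28, FDR 0.00725), and it was no longer a DEG under 6 alternatives, among them the removal of Old1_2, Old3 or CR3. Zmat3, another p53 target, rose by 0.67 (FDR 0.00196) and Cdk6 by 0.30 (FDR 0.00759), while Ccng2, a cyclin that FOXO factors induce, fell by 0.68 (FDR 0.0126) and Cdk4 by 0.18 (FDR 0.0346). Ccnd2, the main cyclin D of granulosa cells, had medians of 982 and 1072 CPM (0.21 ± 0.09, FDR 0.182).

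**Figure D4:**
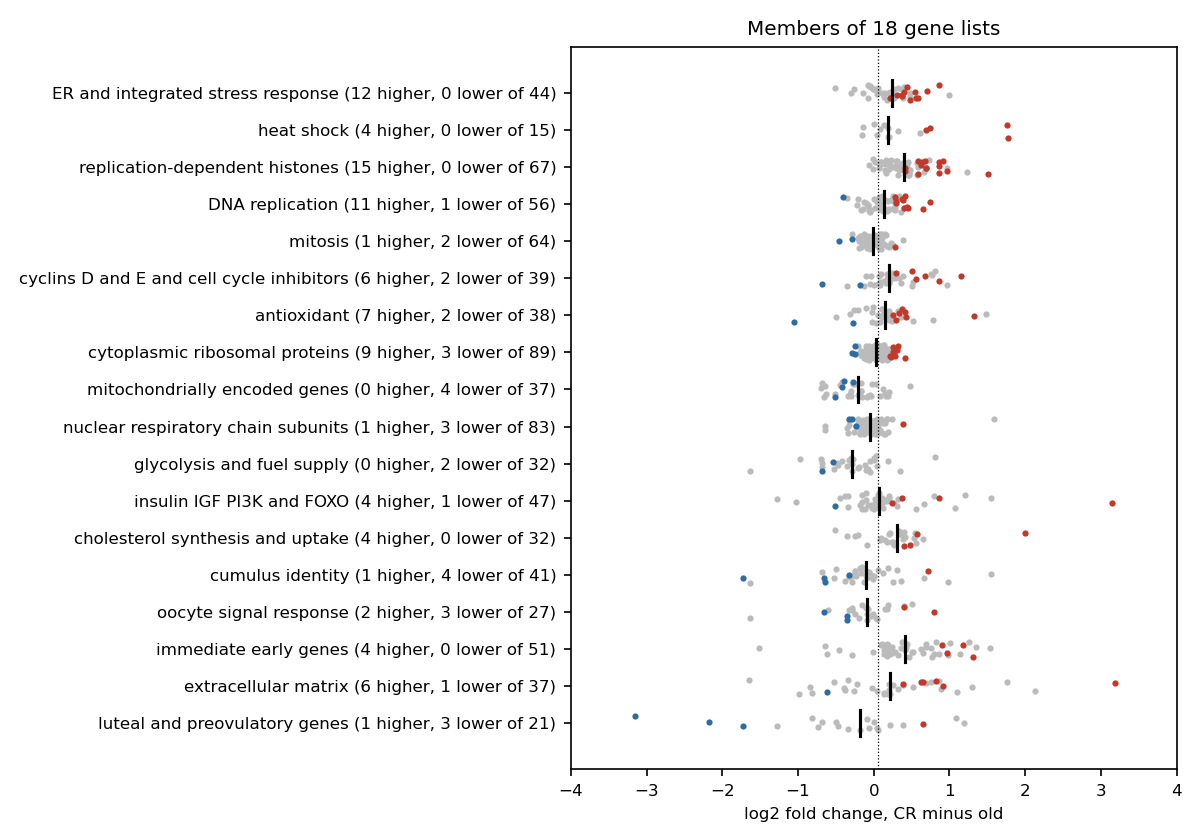
Log2 fold change (CR minus old) of each gene tested in 18 gene lists, red for DEGs higher and blue for DEGs lower in CR, grey for the others, with a bar at the median of the list and a dotted line at the median of all genes (0.06). Histones (0.40), immediate early genes (0.42) and ER stress genes (0.25) lay to the right of the line, glycolysis (−0.29) and mitochondrially encoded genes (−0.20) to the left.

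Some genes that identify cumulus cells were lower in CR. Of 41 identity genes 1 was higher and 4 lower in CR, where 3.38% of all genes were higher and 2.05% lower. Of the 41, 31 were below 0 (median −0.11), against 10771 of all 24946 genes tested. All 13 hormone and growth factor receptors in the list were below 0 (median −0.25), 3 of them DEGs. Bmpr1b, a receptor for BMP15 of the oocyte, had 246, 356 and 479 CPM in old and 120, 222 and 368 CPM in CR libraries and fell by 0.65 ± 0.12 (FDR 0.000343). Npr2, the natriuretic peptide receptor whose cyclic GMP holds the oocyte in arrest, had 405, 558 and 659 CPM and 231, 445 and 580 CPM (−0.32 ± 0.09, FDR 0.0287). The third was Lhcgr, described above. Cdh2, the cadherin of the contacts between cumulus cells and the oocyte, had 99.5, 330 and 442 CPM and 91.9, 220 and 297 CPM (−0.64 ± 0.16, FDR 0.0113). Its 3 lowest old values were those of old libraries 1, 3 and 6 with high Amh. Serpine2, a protease inhibitor of cumulus cells, was the single identity gene that rose, with 584, 721 and 1168 CPM in old and 776, 1182 and 1900 CPM in CR libraries (0.71 ± 0.12, FDR 0.000103).

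Other identity genes did not pass the test. Inha, the inhibin alpha subunit, had medians of 3082 and 3384 CPM (0.31 ± 0.13, FDR 0.165), Fshr of 164 and 120 CPM (−0.39 ± 0.18, FDR 0.228) and Cyp19a1, the aromatase, of 153 and 131 CPM (−0.19 ± 0.27, FDR 0.764). Foxl2 was at 0.25 ± 0.13 (FDR 0.274), Kitl at −0.16 ± 0.15 (FDR 0.614) and Gja1, connexin 43 of the gap junctions, at 0.00 ± 0.07 (FDR 0.995). Amh had a wide spread, from 13.7 to 986 CPM in old and from 3.72 to 1011 CPM in CR libraries (0.12 ± 0.60, FDR 0.94), so a difference in Amh was not detectable here. Of 27 genes that respond to oocyte signals, Smad4 (−0.36, FDR 0.00474) and Smad3 (−0.36, FDR 0.0177), which carry TGF-beta family signals to the nucleus, fell along with Bmpr1b, and the target Id1 (0.80, FDR 0.0334) and the inhibitory Smad7 (0.40, FDR 0.0262) rose. The list median was −0.09. Beside this list and the next, 3.38% of all genes were higher and 2.05% lower. Of 23 expansion genes 1 rose (Il6) and 1 fell (Tgfa, −0.56, FDR 0.0448), and Has2 and Ptgs2, the hyaluronan synthase and the prostaglandin synthase of ovulation, had medians under 4 CPM in both groups.

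Fuel and nutrient pathways were described by their listed genes. Of 32 genes of glycolysis and fuel supply, by which cumulus cells provide the oocyte with pyruvate and amino acids, 2 were lower and none higher. The median was −0.29, and 25 were below 0. Among all 24946 genes tested 2.05% were lower and 10771 were below 0. Hk2, a hexokinase, had 59.0, 233 and 265 CPM in old and 47.9, 135 and 226 CPM in CR libraries (−0.68 ± 0.19, FDR 0.0226). Slc38a1, a glutamine transporter, had medians of 233 and 152 CPM (−0.54 ± 0.14, FDR 0.0104). Ranges overlapped for both, and the count of lower genes was 10 without the 6 libraries with high Amh and 0 without CR2.

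Of 47 genes of insulin, IGF and FOXO signalling 4 were higher and 1 lower (median 0.07), where 3.38% and 2.05% of all genes were. Among the 9871 genes with a mean of at least 10 CPM, 617 were higher and 306 lower. Irs1, an insulin receptor substrate, had 59.4, 87.3 and 120 CPM in old and 69.1, 119 and 153 CPM in CR libraries (0.37 ± 0.10, FDR 0.0192), and the kinase Akt1 rose by 0.23 (FDR 0.0251). Sesn2 is also in this list, and Ins2, another of the increases, had at most 1 count in any old library and gives no usable fold. Igf1r (−0.15 ± 0.12, FDR 0.526), Foxo1 (−0.11 ± 0.10, FDR 0.609), Irs2 (0.79 ± 0.43, FDR 0.316) and Pdk4 (0.66 ± 0.35, FDR 0.306), a kinase that fasting induces in other tissues, did not pass the test. Of 38 mTOR and AMPK genes 1 was higher (Akt1s1, 0.38, FDR 0.0176), and of 10 sirtuins 1 (Sirt7, 0.56 ± 0.15, FDR 0.0224). Of 25 clock genes 1 was higher and 1 lower (Bhlhe40, −0.59, FDR 0.0104). The counts of the mTOR and clock lists were near the shares over all genes.

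Lipid genes included increases and decreases. Of 32 genes of cholesterol synthesis and uptake 4 were higher and none lower, with 27 above 0 and a median of 0.30. Among all 24946 genes tested 3.38% were higher and 14175 were above 0. Srebf2, the transcription factor of sterol synthesis, had 75.7, 116 and 159 CPM in old and 94.8, 146 and 214 CPM in CR libraries (0.40 ± 0.10, FDR 0.0126). The ranges overlapped. Without CR3 the list had 17 higher genes and without Old1_2 none. Of 54 genes of fatty acid oxidation and fasting 2 rose and 2 fell, near the shares over all genes (3.38% higher and 2.05% lower). Cd36, a fatty acid receptor, had 31.9, 65.3 and 110 CPM and 6.29, 37.1 and 92.9 CPM (−0.96, FDR 0.0113), and the coactivator Ppargc1a had at most 5 counts in any library.

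Redox and mitochondrial genes split. Of 38 antioxidant genes 7 rose and 2 fell (median 0.15), where 3.38% of all genes were higher and 2.05% lower. Gsta4, a glutathione transferase for lipid peroxidation products, had 4.34, 18.4 and 30.8 CPM in old and 20.3, 43.1 and 107 CPM in CR libraries and rose by 1.33 ± 0.18 (FDR 3.44e-06). Prdx1, a peroxiredoxin, had 300, 364 and 516 CPM and 354, 496 and 696 CPM (0.43, FDR 0.000711), and Gpx1, a glutathione peroxidase, medians of 42.9 and 55.3 CPM (0.41 ± 0.09, FDR 0.002). The secreted Gpx3 went the other way, with 8.49, 18.9 and 39.2 CPM and 2.50, 9.61 and 27.3 CPM (−1.05 ± 0.24, FDR 0.00451), as did Prdx2 (−0.28, FDR 0.0256).

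Of 37 mitochondrially encoded genes none was higher and 4 were lower, with 29 below 0 and a median of −0.20, while the share of mitochondrial counts had medians of 8.28% in old and 8.05% in CR libraries. The clearest was mt-Nd6, a complex I subunit, with 492, 621 and 816 CPM and 322, 423 and 618 CPM (−0.51 ± 0.08, FDR 2.15e-05), followed by mt-Nd2 (−0.42 ± 0.09, FDR 0.00199), mt-Atp8 (−0.39, FDR 0.00288) and mt-Atp6 (−0.28, FDR 0.0329). As mt-Atp8 (bases 7766-7969) and mt-Atp6 (bases 7927-8607) overlap and can share reads, they do not count as separate decreases. Nuclear genes of the respiratory chain had 1 increase and 3 decreases among 83, mitochondrial ribosomal proteins 3 increases among 78, and cytoplasmic ribosomal proteins 9 increases and 3 decreases among 89, with called changes of at most 0.60 in size. Of 50 proteasome subunits 3 rose, led by Psmb3 (0.52, FDR 0.000108). Over all genes 3.38% were higher and 2.05% lower. The counts of the respiratory chain and of mitochondrial ribosomal proteins were close to these shares.

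Matrix, inflammation and early response genes included several increases. Of 37 matrix genes 6 rose and 1 fell (Tnc, −0.61, FDR 0.0213), where 3.38% of all genes were higher and 2.05% lower. Lamc1, the laminin gamma 1 chain of basement membranes, had 49.6, 78.2 and 108 CPM in old and 80.3, 111 and 196 CPM in CR libraries (0.63 ± 0.10, FDR 4.07e-05). Thbs1, thrombospondin 1, was abundant, with 784, 1682 and 2514 CPM and 902, 3085 and 3591 CPM (0.65 ± 0.14, FDR 0.00278), and Mmp14, a membrane-bound metalloproteinase, had medians of 19.2 and 35.4 CPM (0.82 ± 0.14, FDR 0.000163).

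Of 34 inflammation and interferon genes 3 rose (Il6, Tnf 1.73 and H2-D1 1.25) and 1 fell, Ifi27, an interferon-induced gene, from a median of 16.4 to 9.68 CPM (−0.88 ± 0.14, FDR 5.37e-05). Of 51 immediate early genes 4 rose and none fell, and 45 were above 0 (median 0.42). Beside both lists, 3.38% of all genes were higher and 2.05% lower, and 14175 of 24946 were above 0. Dusp6, the phosphatase that limits ERK, had 2.34, 22.8 and 110 CPM and 8.38, 55.8 and 146 CPM (1.18 ± 0.31, FDR 0.0141), and Plk3 (1.31 ± 0.34, FDR 0.0148), Gadd45g (0.96 ± 0.29, FDR 0.0413) and Ier5 (0.91 ± 0.28, FDR 0.0472) followed. Of 20 alternatives, Ier5 lost its call under 12, Gadd45g under 11, Dusp6 under 5 and Plk3 under 4. Ier5 and Gadd45g both lost it with median-of-ratios size factors. Sums per mouse label aside, the count of 4 ranged from 0 to 7. Fos ranged from 137 to 2637 CPM in old and from 128 to 3368 CPM in CR libraries (0.42 ± 0.29, FDR 0.459), and Egr1 was at 0.18 ± 0.28 (FDR 0.789).

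Steroid genes had 1 increase, Cyp17a1, and 1 decrease, Fdxr, the ferredoxin reductase that passes electrons to steroid enzymes, from 58.8 to 35.2 CPM in the median (−0.72 ± 0.15, FDR 0.00275), among 21. Star (−0.34, FDR 0.681) and Cyp11a1 (−0.47, FDR 0.693) did not pass. The counts of the steroid list were near the shares over all genes, 3.38% higher and 2.05% lower. Of 7 luteal markers 3 were lower in the fit, where 2.05% of all genes were lower. Ptgfr, the prostaglandin F receptor, and Sfrp4, a secreted Wnt antagonist, joined Lhcgr, at −3.15 ± 0.63 (FDR 0.00122) and −2.18 ± 0.51 (FDR 0.00672). Old library 7 had 50.8 CPM of Ptgfr, 249 of Sfrp4, 138 of Lhcgr and 469 of Cyp11a1, the highest value of each in the group. Without it Ptgfr was at −2.19 (FDR 0.0236) and Sfrp4 at −1.27 (FDR 0.106). Without Old1_2 Sfrp4 reversed to 0.53 (FDR 0.873) and Ptgfr was at −0.53 (FDR 0.924).

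Mid1, an X-linked ubiquitin ligase gene that spans the pseudoautosomal boundary in mouse, followed the mouse label and not the group. Its label means were 80.3 CPM in Old1_2 and 3.16 CPM in Old3, against 3.31, 6.71 and 4.98 CPM in CR mice, so that it fell by 3.37 ± 0.37 (FDR 2.24e-08) over all libraries and was at 0.75 (FDR 0.599) without Old1_2. Of its values 87.8% were not whole, as reads were shared with other places. The hub genes that the study picked from these cumulus libraries are not independent evidence of their direction. Of 5 that it found higher with age, 4 were lower in CR, Luzp4 (medians 8.43 and 1.62 CPM, −1.89 ± 0.41, FDR 0.00305), Gm15127 (8.83 and 2.48 CPM, −1.81 ± 0.36, FDR 0.00123), Gm15093 (−1.37) and Gm15109 (−1.5), and none of the 5 lower with age (Fos, Fosb, Sik1, Zfp36 and Jun) was a DEG. The 4 lower genes lie near each other on the X chromosome and had at most 20 counts in any library. From 89.47% (Luzp4) to 100% (Gm15127) of their values were not whole, as reads were shared with other places. They may therefore not be 4 separate signals.

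Middle mice, 9 months old and fed ad libitum, share the age of CR mice and the diet of old mice. Their 15 cumulus libraries had 848243 to 1269680 counts. This range overlapped that of old libraries (1051482 to 1540270) and lay wholly below that of CR libraries (1568223 to 2501005). Depth therefore cannot be told apart from the group in CR against middle, while it overlapped in old against middle. CR against middle cumulus cells gave 887 DEGs among 24657 genes (3.6%), and old against middle 10 among 23077 (0.0433%). These comparisons share libraries with each other and with the main one, so their values are only set side by side. Scara5 was at 2.86 ± 0.30 in CR minus middle and −0.41 ± 0.36 in old minus middle. Rian was at −1.35 ± 0.27 and 0.22 ± 0.31, and Lrrtm3 at −2.84 ± 0.43 and −0.12 ± 0.31. Hspa8 was at 0.81 and 0.14, P4hb at 0.59 and 0.07, Gsta4 at 1.36 and 0.05, and Bmpr1b at −0.62 and 0.06. None of these differences between old and middle mice passed the test. Of the 20 leading genes, Dynap was the one with little difference between CR and middle (0.18 ± 0.64) beside a larger value in old minus middle (−1.98 ± 0.65, FDR 0.432). Mid1, high in Old1_2, was at −0.04 and 3.34 (FDR 0.972 and 0.0007).

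**Figure D5:**
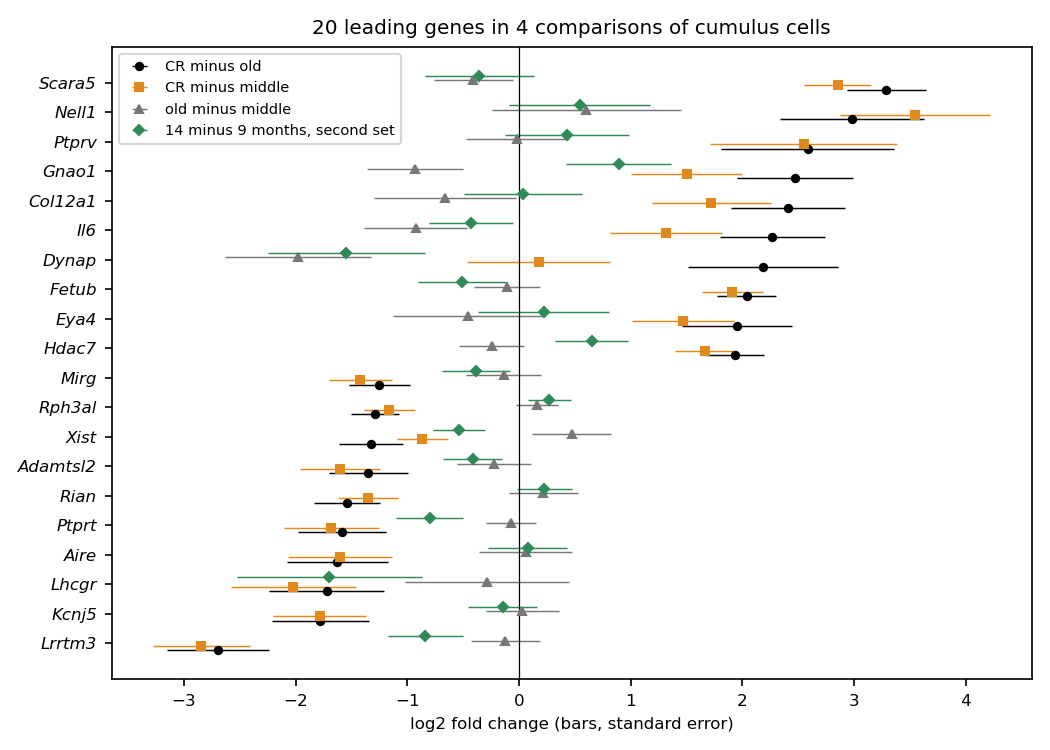
Log2 fold changes ± SE of the 20 leading genes in CR minus old, CR minus middle, old minus middle and, in the second set of mice fed ad libitum, 14 minus 9 months. For most genes CR minus middle lies near CR minus old, while old minus middle and 14 minus 9 months lie nearer to 0, as for Scara5 with 2.86, −0.41 and −0.35.

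The second set of samples held cumulus cells of other mice, all fed ad libitum, with 16 libraries at 14 months and 16 at 9 months, so that age differed there without the diet. It gave 32 DEGs among 22364 genes (0.143%), 10 higher and 22 lower at 14 months, with 2213 genes at an unadjusted p under 0.05, and DESeq2 gave 96. Of the 844 genes higher in CR, 813 were tested in the second set and none was a DEG, with 93 at an unadjusted p under 0.05. Of these, 359 (44.16%) had a log2 fold change below 0 (14 minus 9 months), against 54.9% of all 21936 genes tested in both. Of the 512 genes lower in CR, 462 were tested, 190 of them above 0 and 272 (58.87%) below, and the single DEG was Arhgef28, a guanine nucleotide exchange factor, which was lower in both, by 0.34 in CR and by 0.54 at 14 months (FDR 0.0237). Rian was at 0.23 ± 0.25 and Xist at −0.54 ± 0.24 in 14 minus 9 months, Hspa8 at 0.18 ± 0.11 and P4hb at −0.05 ± 0.11, and none of these passed the test.

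In a principal component analysis of log10(RPKM + 1) over 26062 genes, PC1 held 9.93% and PC2 5.38% of the variance. Scores on PC1, which ran from Amh, Aard, Cited1, Igfbp5 and Wt1 at one end to Inhba, Inhbb and Cox4i2 at the other, were 2.87 ± 9.81 (SD, n = 16) in old and −1.84 ± 8.81 (SD, n = 25) in CR libraries (p = 0.115 after Holm correction, two-sided permutation test). Over mouse labels PC1 had means of 1.52 and 5.85 in old and −2.47, −1.74 and −1.76 in CR mice, with an exact permutation p of 0.1, the smallest possible. Scores on PC2 were −5.78 ± 3.17 and 3.70 ± 6.05 (p = 4e-05 after Holm correction, from the smallest p that 100000 resamples can give). Over mouse labels PC2 had means of −7.23 and −2.61 in old and 7.13, 9.30 and −0.964 in CR mice, with an exact permutation p of 0.2. The PC2 difference lost significance without Old1_2 (p = 0.13 after Holm correction) and without CR2 (p = 0.126).

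Libraries of CR mice also varied more among themselves. At equal depth, the median Pearson r of log2 CPM was 0.926 between libraries of Old1_2, 0.932 within Old3 and 0.926 between both old labels. It was 0.863 within CR1, 0.856 within CR2, 0.900 within CR3 and 0.870 between CR mice, and 0.888 over the 400 pairs of an old and a CR library. These are descriptions across genes, since pairs share libraries. Old libraries were thus more alike than CR libraries, and CR mouse 3 was the CR label nearest to old mice on PC2 and for Lrrtm3 and Rian.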

How the data were processed

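The authors mapped the reads to GRCm38 with HISAT2 2.0.5 and used featureCounts 1.5.1 with GENCODE vM15, a multi-mapped read being shared between its genes. The deposited expected count table held 41092 genes, and 36.8% of nonzero values in the 41 libraries were not whole and were rounded. The authors also deposited RPKM values, used here for principal components only (pseudocount 1 RPKM). Symbols and coordinates came from GENCODE vM21 (40982 genes matched). No pair of libraries agreed within sampling noise. The library numbers follow accession order and only name libraries.

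All genes detected in 5 libraries or more were tested with edgeR 4.0.16 in R 4.3.3 (TMM normalization, quasi-likelihood F test, Benjamini-Hochberg FDR of 5%), a script tested on simulated data. SEs were calculated from the fold change and p. CPM of single genes used library totals scaled by the TMM factors. Summed CPM of marker lists used total counts per library without these factors. Permutation tests used scipy 1.17.1. Alternatives were DESeq2 1.42.0, limma 3.58.1 with voom on the genes of filterByExpr (low counts are biased where depth differs), other filters and scalings, counts drawn to a total of 1051090, sums per mouse label and each label left out. In the middle group, 1 complex that the study removed was left out. The comparison, gene lists and tests were chosen with earlier results of these data known. Named genes were the 10 DEGs with the largest rise and the 10 with the largest fall that had 10 CPM or more on average, a proper gene symbol and label means of CR mice on 1 side of both old labels, up to 4 DEGs of lowest p per list, and a set of cumulus, nutrient and cycle genes whatever their result. Genes outside this rule are named to complete a list's count, for their promoters or as members of the Dlk1-Dio3 region, and were chosen after their values were seen. A few genes that this rule names are not reported here.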

Additional observations from a re-analysis of the deposited data

How the results depend on the processing

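Counts of genes higher and lower in CR were 844 and 512. They were 1 and 1 with counts summed per mouse label, 163 and 235 of 12136 genes with limma-voom and the mouse label as a random effect (correlation 0.0514), and 508 higher at equal depth. Leaving out a mouse label or single library gave 79 to 1019 higher and 64 to 867 lower genes, and those that moved a count by over 1.5 times were Old1_2 (79 and 64), Old3 (421 and 251) and CR3 (867 lower). DESeq2, the likelihood ratio test, other filters and scalings, the all-group fit and the length and GC offset gave 638 to 909 higher and 451 to 692 lower. Added after seeing the data were Amh as a covariate (999 and 654), the removal of 6 libraries with high Amh (624 and 578), and that of old library 7 (679 and 482) or 10 (621 and 500) or CR library 25 (767 and 588). Of 128 named DEGs 125 kept their direction in each alternative that tested them. The exceptions were Mid1 (0.75 without Old1_2, down to −3.89 without Old3), Sfrp4 (0.53 without Old1_2, down to −2.65 without Old3) and Ptprv with limma-voom (−0.034). Of 2528 values 525 lost the call, all 128 with sums per label, and the cause was not tested. The PC2 difference, 1.85 SD, ranged from 0.66 SD (without CR2) to 3.72 SD without 1 label, with 0.78 SD without Old1_2, and that of PC1 from −0.84 to −0.29 SD. In the second set DESeq2 called 96 genes on its 11091 genes against 32. No paired analysis was possible because the library numbers were given in accession order and mice belong to 1 group each. Few mice, and depth that differs with the group, limit these counts.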
